A study of Caenorhabditis elegans with 2 samples.

Results

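The regions described here lie at 9 Caenorhabditis elegans genes of the cytoskeleton, which are the actin genes act-1 to act-5, the alpha-tubulin genes tba-1 and tba-2, and the beta-tubulin genes tbb-1 and tbb-2. They were listed by name as genes known for high expression in embryos, out of 19973 nuclear protein-coding genes in the annotation. The rule used no measured value of the series, but the list was made with earlier results of these data known. Chromatin immunoprecipitation sequencing with an anti-GFP antibody had been done on whole late embryos, 6 hours after synchronization by bleaching, of strain OP677, with 2 biological replicates of 1 group. Both replicates carry the allele unc-119(tm4063) on chromosome III and the transgene wgIs677, from which the transcription factor CHE-1 is made with a C-terminal GFP-FLAG tag. Embryos of mixed sex were pooled, so a region sums over all cells of the embryo. Chromatin of an untagged strain was not analysed here, so how much of the recovery needs CHE-1 was not tested. The 4 lists of regions used were those of replicate 1, of replicate 2 and of both replicates together, with 30000 regions each, and the 791 regions that passed the irreproducible discovery rate (IDR, a procedure that keeps regions ranked alike in replicates). All 791 were also the highest 791 of the list of both. The authors' own label of the list of both is peaks and background as input for IDR. Its regions outside the IDR set can therefore include background. The depth of the libraries is unknown. The signal of a region is the authors' own value against a control on an unstated scale, and it is used only to rank regions within a list, with rank 1 the highest.

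Actin and tubulin are the building blocks of the cytoskeleton. Actin polymerises into the thin filaments of muscle and into the cortex that drives cell division and cell shape, and dimers of alpha- and beta-tubulin polymerise into the microtubules of the spindle, cilia and neurons. CHE-1 is a zinc finger factor known for specifying the ASE taste neurons, a pair of cells in the head. A gene window ran from 2 kb upstream of the gene start to the gene end. A summit, the position of highest signal that the authors' caller gave, was called promoter when it lay up to 1 kb upstream of the gene start, farther upstream when it lay beyond that, and gene body when it lay between gene start and gene end.

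The bases within 50 bp of the strongest summit of 7 members in the list of both are shown. They can be read for the sites sought below. They are taken from the RefSeq copy of the reference genome WBcel235, the assembly of the ce11 coordinates, written 5′ to 3′ on the strand of the gene, and windows that overlap an untranslated region were passed over. For act-5 this gave its second-ranked summit. No window of tba-1 or tba-2 is printed. These genes were set aside before that rule was applied, and their regions are still counted in the motif shares given after the sequences. Capitals mark a match, on either strand, to GAAACC or GAAGCC, the forms of the core site known for CHE-1 in ASE neurons, or to CGCACA, a 6-mer that an earlier description of these data found often at summits.
act-1, chrV:11080356-11080456, plus strand: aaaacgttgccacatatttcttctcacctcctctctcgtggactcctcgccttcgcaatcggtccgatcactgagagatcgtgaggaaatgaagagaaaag
act-2, chrV:11078505-11078605, minus strand: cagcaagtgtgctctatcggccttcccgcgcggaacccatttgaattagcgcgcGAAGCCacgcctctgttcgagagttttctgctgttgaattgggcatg
act-3, chrV:11075893-11075993, minus strand: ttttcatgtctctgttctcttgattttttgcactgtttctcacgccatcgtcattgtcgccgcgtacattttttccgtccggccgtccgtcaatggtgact
act-4, chrX:4961142-4961242, plus strand: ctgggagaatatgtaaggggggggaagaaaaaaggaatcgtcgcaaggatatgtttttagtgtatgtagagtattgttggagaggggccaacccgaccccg
act-5, chrIII:13606370-13606470, minus strand: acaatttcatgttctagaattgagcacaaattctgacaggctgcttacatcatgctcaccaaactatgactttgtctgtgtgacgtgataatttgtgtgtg
tbb-1, chrIII:10742549-10742649, minus strand: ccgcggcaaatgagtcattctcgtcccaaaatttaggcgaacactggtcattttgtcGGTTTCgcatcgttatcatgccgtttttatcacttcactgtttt
tbb-2, chrIII:4018402-4018502, minus strand: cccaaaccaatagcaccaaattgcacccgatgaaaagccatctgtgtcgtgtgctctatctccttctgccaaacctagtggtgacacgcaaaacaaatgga
A GAAGCC match stood at base 55 of the act-2 window, and a GAAACC match, read as GGTTTC on the strand of the gene, at base 58 of the tbb-1 window. None of the 3 motifs was found in the other 5 sequences. Among all 24 member regions of the list of both, 4 (16.67%) held GAAACC or GAAGCC within 50 bp of the summit, against 8.56% of the 29978 nuclear regions of that list. They were the act-2 and tbb-1 regions above, the act-5 region 1999 bp upstream and the tba-2 region 839 bp upstream. The act-5 one was nearest to the start of the neighbouring gene shpk-1. The tba-2 one had its summit in the coding sequence of the neighbouring gene pbs-2. CGCACA was in 1 of the 24, against 3.60% of all nuclear regions. The member windows had a median G and C content of 48.5%, against 40.6% over all nuclear regions. A match describes the letters present and is not evidence of binding.

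Every member had at least 1 region in its window, and a single member reached the IDR set. In the list of both replicates together, 24 regions had their summit in the 9 windows, and all 9 genes had at least 1, where 60.1% of all nuclear protein-coding genes did. Replicate 1 alone gave 22 regions at all 9 genes, against 62.6% of genes, and replicate 2 alone gave 23 regions at all 9, against 63.6%. The IDR set held 1 region, in the window of tba-1, so 1 of 9 members carried one against 4.24% of genes. Of the 24 regions, 8 ranked within the highest 5000, 7 from there to rank 15000, and 9 below that. Their signal ran from 35.3 to 132.3 with a median of 59.6, where the median of the whole list was 47.7. The member windows held 0.662 summits per kb, and the windows of all genes 0.308. No test was made of these differences, and regions of the list of both outside the IDR set can include background.

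Classed by the gene start, summits at members lay in promoters and in gene bodies in nearly equal number. In the list of both, 9 of 24 were in the promoter (37.5%), 5 farther upstream (20.8%) and 10 in the gene body (41.7%). Over all genes the shares were 23.4%, 17.4% and 59.3%. By length, members had 1.0 promoter summit per kb against 0.377 over all genes, and 0.548 gene body summits per kb against 0.296. A promoter summit was found at 7 of 9 members, against 30.4% of all genes, and a gene body summit at 5 of 9, against 40.1%. In the IDR set no member had a promoter summit, where 2.21% of all genes had one. The gene body summits were unevenly spread, since act-4 alone held 5 of the 10. With promoters counted upstream of any transcript start of a member, 11 of the 24 summits were in a promoter. Replicate 1 split its 22 summits into 8, 5 and 9, and replicate 2 its 23 into 9, 4 and 10, in the same order of classes.

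**Figure D1:**
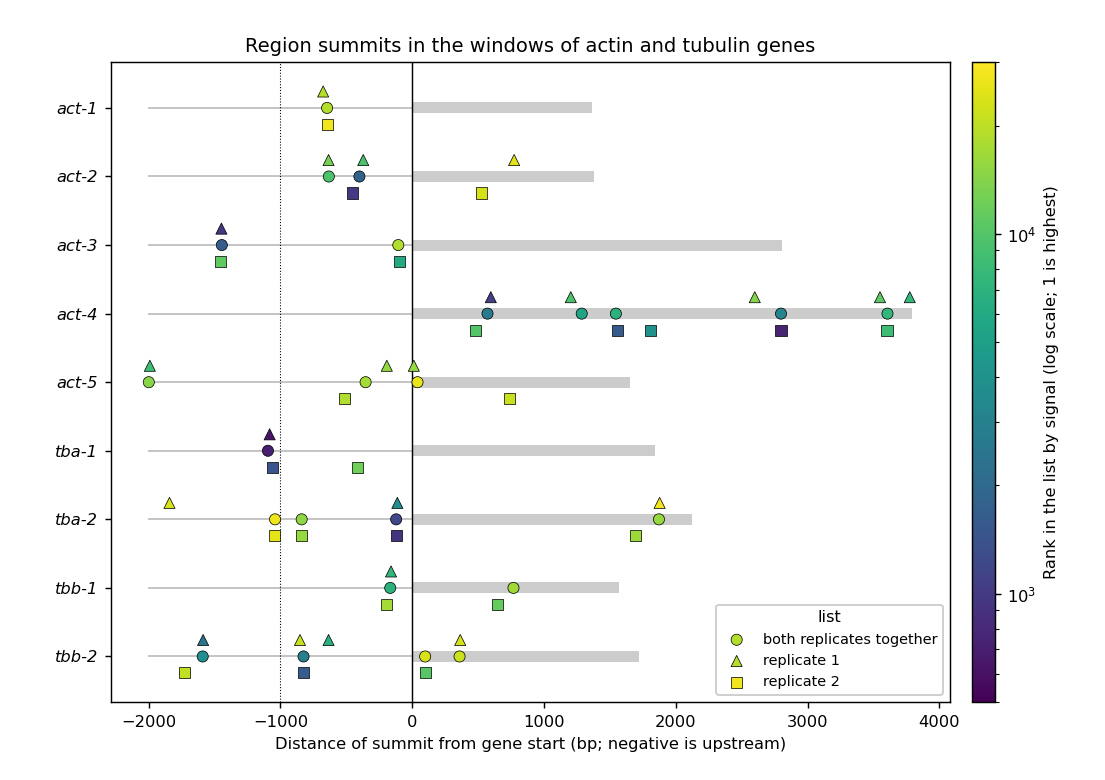
Position of every region summit in the 9 gene windows, as distance in bp from the gene start, with upstream to the left and gene bodies drawn as grey bars to scale. Circles are the list of both replicates together, triangles replicate 1 and squares replicate 2, and colour gives the rank in the list on a log scale. The 5 act-4 circles all lie within the gene, while act-1, act-2, act-3 and tba-1 have circles upstream only.

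The genes act-1, act-2 and act-3 lie within a cluster on chromosome V and code for actins of muscle and of the early embryo. Upstream of act-2 (chromosome V, 11076777 to 11078154, minus strand) the list of both held a promoter region at 11078313 to 11078796. Its summit was 401 bp upstream of the start, with a signal of 94.2 at rank 1781, and its bases are printed above. The replicates gave it unequal weight, at rank 9246 in replicate 1 and rank 995 in replicate 2. A neighbouring region of lower signal (57.3, rank 9335) had its summit 633 bp upstream and overlapped the first one. In replicate 2 both were covered by the same region, whose summit was 456 bp upstream.

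The strongest region of act-3 (chromosome V, 11071690 to 11074498, minus strand) lay between it and act-2, at 11075701 to 11076184. Its summit was 1445 bp upstream of act-3, within the span of the annotated non-coding genes T04C12.15 and T04C12.21, with a signal of 97.1 at rank 1617. Here replicate 1 was the higher, at rank 951 against 10998 in replicate 2, the reverse of act-2. The promoter region of act-3, with a summit 106 bp upstream, was weak in the list of both (signal 43.6, rank 18323). It ranked 5998 in replicate 2 and had no overlapping region in replicate 1. At act-1 (chromosome V, 11081052 to 11082415, plus strand) there was 1 weak region, 646 bp upstream, with a signal of 43.3 at rank 18579. It ranked 19000 in replicate 1 and 27410 in replicate 2, with summits within 30 bp of it. The summit lay within 2 annotated non-coding genes, T04C12.16 and T04C12.25, as did that of the stronger act-2 region within T04C12.18 and T04C12.24.

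No list held a summit in the gene body of act-1 or act-3, and the list of both held none in that of act-2. Each replicate had a low region in the act-2 gene body, at rank 24938 in replicate 1 and 23207 in replicate 2, and the 2 overlapped. These genes are close copies. The coding sequences of act-1 and act-3 were identical over all 1128 bp, and act-2 shared 96.2% of bases with either. Of the stretches of 32 bases in the coding exons, 0% in act-1 and in act-3 and 54.3% in act-2 occurred at no other place in the genome, on either strand. From gene start to gene end, with introns, the share was 12.2% in act-1, 61.8% in act-2 and 58.1% in act-3. The 2 kb upstream of each of the 3 genes was 100% unique by this measure. How reads with several matching places were treated is not given in the sources used here, and the part of sequence copies in the lack of gene body regions was not tested.

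**Figure D2:**
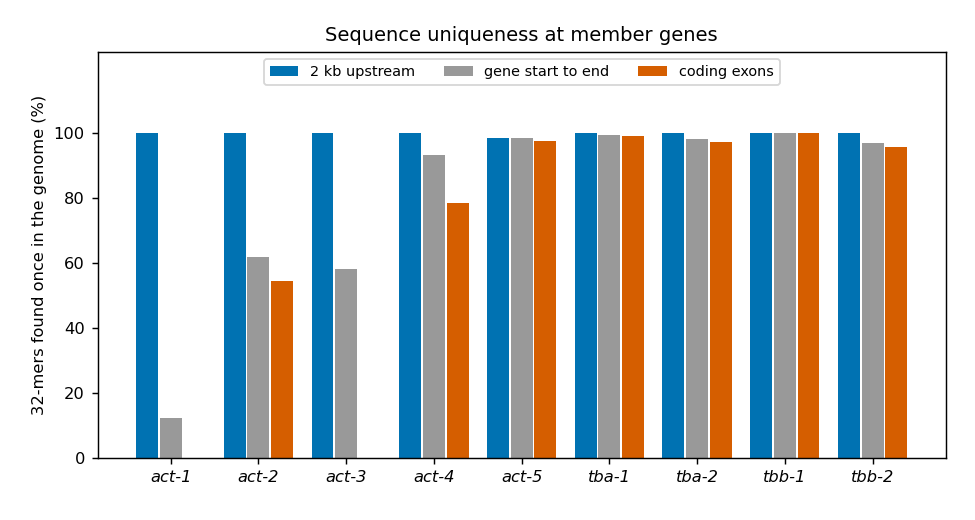
Percentage of 32-base stretches found at a single place in the genome, for the 2 kb upstream, the span from gene start to gene end and the coding exons of each member. The coding exons of act-1 and act-3 stand at 0%, those of act-2 at 54.3% and of act-4 at 78.4%, while act-5 and the tubulin genes are at 95.7% or above.

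At act-4 (chromosome X, 4960621 to 4964413, plus strand), an actin gene with expression in body wall muscle among other tissues, all 5 regions lay within the gene and none upstream. As many gene body summits were found at 4.36% of all genes, and act-4 has the longest window of the 9. In the list of both, 3 summits were in introns, at 571 bp (signal 83.7, rank 2663), 1286 bp (67.8, rank 5460) and 1545 bp (63.5, rank 6812) from the gene start. The other 2 were in the coding sequence at 2798 bp (79.5, rank 3179) and in the 3′ untranslated region at 3606 bp (61.9, rank 7391). A second transcript of act-4 starts downstream of the 3 intronic summits, and 2 of these, at 1286 and 1545 bp, lay 968 and 709 bp upstream of that start.

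The replicates placed their strongest act-4 signal at different ends of the gene. Replicate 1 ranked the region near the gene start highest, at 1059 with a signal of 66.1, and replicate 2 had it at 9833. Replicate 2 ranked the coding region at 2798 bp highest, at 747 with a signal of 63.7, and replicate 1 had its overlapping region at 14037, with a summit 199 bp away. The coding region is also the member region with the lowest sequence uniqueness, at 78.6% of its 32-base stretches. Fully unique were 18 of the 24 member regions, and 21669 of the 29978 nuclear regions of the list of both. The other 4 regions of act-4 were fully unique.

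At act-5 (chromosome III, 13604412 to 13606066, minus strand), which codes for the actin of the microvilli of the gut, the regions were weak. The promoter summit 354 bp upstream had a signal of 44.6 at rank 17408, with rank 15676 in replicate 1 and 18364 in replicate 2. A summit 40 bp inside the gene (signal 36.1, rank 26069) overlapped a region in replicate 1 and none in replicate 2. The highest of the 3 (48.5, rank 14440) was at the limit of the window, 1999 bp upstream, in the 5′ untranslated region of the neighbouring gene shpk-1 and 45 bp from its start. It too had no overlapping region in replicate 2. On the upstream side, the nearest summits outside any window were 2252 bp upstream of act-2 and 2265 bp upstream of act-1. Each was the other gene's own promoter region, at ranks 18579 and 9335. Summits past the gene ends were not looked for. Counted by overlap of at least 1 bp with a window, 25 regions lay at members in place of 24.

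In the list of both, the alpha-tubulin genes had the highest regions of the 9 members, while act-4 led in replicate 2, and act-3, act-4 and tbb-2 ranked above tba-2 in replicate 1. The IDR region of tba-1 (chromosome I, 9785781 to 9787624, minus strand) spanned 9788477 to 9788960, with a signal of 132.3. It ranked 717 of 791, and the lowest IDR region had a signal of 127.2. It ranked 621 in replicate 1 and 1462 in replicate 2, with summits 13 and 36 bp away, so both replicates placed it high. Its summit was 1095 bp upstream of tba-1, but 6 bp upstream of the start of cox-5B, a subunit gene of cytochrome c oxidase that is transcribed in the opposite direction. By the nearest start it therefore belongs to cox-5B. The list of both held no other region for tba-1, in its promoter or its gene body, and replicate 2 alone had a promoter region 415 bp upstream, at rank 12356. The gene body of tba-1 is 99.4% unique in sequence.

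At tba-2 (chromosome I, 12964674 to 12966795, minus strand) the summit of the strongest region was 122 bp upstream of the gene start, and tba-2 was the nearest gene. The region at 12966675 to 12967158 had a signal of 107.3 at rank 1201, below the lowest IDR region at rank 791. It ranked 3654 in replicate 1 (signal 46.5) and 940 in replicate 2 (signal 58.1), and the summits of the replicates were 9 and 0 bp away. Of the promoter regions of all 9 members it was the highest in the list of both. The other 3 regions of tba-2 were weak, at ranks 14884, 15603 and 27023. A pair of them had their summits 839 and 1041 bp upstream, inside the coding sequence of pbs-2, a proteasome subunit gene on the same strand, and neither overlapped a region of replicate 1. The remaining one was in the coding sequence of tba-2, at 1872 bp from the start.

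The beta-tubulin genes tbb-1 and tbb-2 differed in the number and position of their regions. At tbb-1 (chromosome III, 10740868 to 10742432, minus strand) the promoter region had its summit 167 bp upstream, with a signal of 63.3 at rank 6869. It ranked 7385 in replicate 1 and 17306 in replicate 2, with summits 6 and 28 bp away. The replicate 2 summit was nearer to the start of the neighbouring gene rib-2, at 183 bp upstream, than to that of tbb-1, at 195 bp. The other region of tbb-1, in its coding sequence at 768 bp (signal 45.3, rank 16795), overlapped a region of replicate 2 at rank 11329 and none of replicate 1.

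At tbb-2 (chromosome III, 4015910 to 4017627, minus strand) the strongest region had its summit farther out, 825 bp upstream, with a signal of 81.6 at rank 2901. Replicate 2 had it at rank 1637 with a summit 3 bp away, and replicate 1 at rank 21394, with another region of replicate 1 635 bp upstream at rank 6775. A further region 1590 bp upstream (75.6, rank 3801) was 820 bp upstream of snpc-3.4, the nearest gene start. This one was the higher in replicate 1, at rank 2411 against 20683 in replicate 2. The 2 regions in the coding sequence, at 98 and 359 bp, were weak (ranks 23568 and 21608). The coding sequences of tbb-1 and tbb-2 were 85.3% identical and those of tba-1 and tba-2 87.3%, and at least 95.7% of the 32-base stretches in the coding exons of these 4 genes were unique.

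Set in order by their highest region in the list of both, the members ran from tba-1 (rank 717) through tba-2 (1201), act-3 (1617), act-2 (1781), act-4 (2663), tbb-2 (2901), tbb-1 (6869) and act-5 (14440) to act-1 (18579). A region as high was found in the windows of 3.87% of all genes for tba-1, 6.20% for tba-2, 8.20% for act-3, 8.94% for act-2, 12.4% for act-4, 13.3% for tbb-2, 25.2% for tbb-1, 41.1% for act-5 and 47.5% for act-1. The median of the 9 was rank 2663, against 8779 over the 12011 genes that had a region. The places of tba-1 and act-5 rest on regions nearest to the starts of cox-5B and shpk-1. Without these regions tba-1 had none in the list of both, and the highest of act-5 was at rank 17408. The order was not the same in each replicate. In replicate 1 it was led by tba-1 (621), act-3 (951) and act-4 (1059), and in replicate 2 by act-4 (747), tba-2 (940) and act-2 (995). The 2 replicates share act-1 at the low end, at 19000 and 27410, and place act-5 at 8367 and 18364. Members other than act-1 changed places between the 2 libraries, and not only with neighbours. The highest region of act-2, at 995 in replicate 2, was at 9246 in replicate 1, below those of act-5 and tbb-1 (7385). That of act-3 was at 951 in replicate 1 and 5998 in replicate 2.

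**Figure D3:**
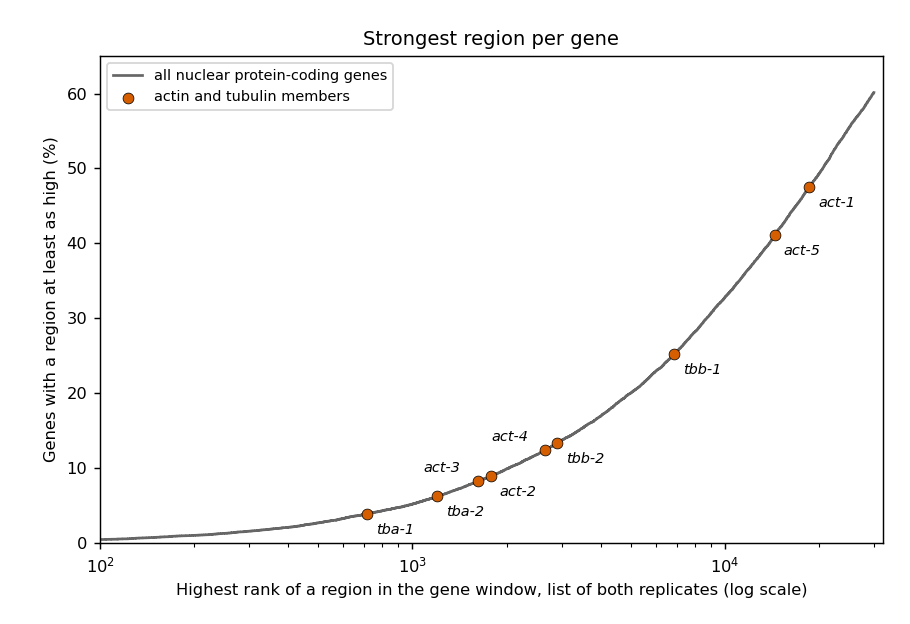
Percentage of all nuclear protein-coding genes whose window holds a region at least as high as a given rank in the list of both replicates (grey line, log rank axis), with the 9 members as orange points. The points run from tba-1 at rank 717 and 3.87% of genes to act-1 at rank 18579 and 47.5%. The regions behind the tba-1 and act-5 points are nearest to the starts of cox-5B and shpk-1.

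Ranks in the replicates differed widely at members. Of the 24 regions, 20 overlapped a region of replicate 1, 22 one of replicate 2 and 18 (75.0%) one in each, against 58.9% of all nuclear regions in the list of both. Among these 18 the larger of the 2 ranks was a median of 4.91 times the smaller, and 7 ranked higher in replicate 1 and 11 in replicate 2. Over all nuclear regions found in both replicates the median was 1.96 times, with 8809 higher in replicate 1 and 8852 in replicate 2. The members were not matched to these regions on rank, and low ranks leave less room for a large ratio. Spearman's correlation of the ranks was 0.189 over the 18 regions and 0.297 over the 17665 nuclear regions of the list found in both replicates. These correlations are descriptions across regions of the same 2 libraries, where a replicate region can stand for 2 neighbouring regions. For members and all regions alike, the overlapping replicate region with the nearest summit was taken, even where another ranked higher. The tbb-2 region 825 bp upstream, for example, was matched to rank 21394 in replicate 1, while a region at rank 6775 also overlapped it. The tba-1 region and the tba-2 promoter region were the 2 that ranked within the highest 5000 in each replicate. Sequencing depth per replicate is not known, and its part in the differing ranks was not tested.

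**Figure D4:**
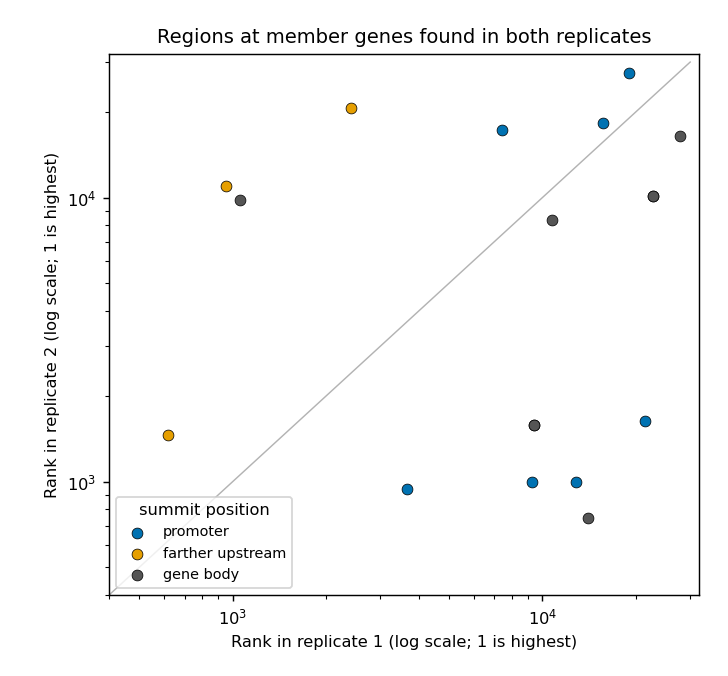
Rank in replicate 1 against rank in replicate 2, both on log axes, for the 18 member regions with an overlapping region in each replicate, coloured by summit position. Points far from the grey line of equal rank include the act-4 coding region (14037 and 747) and the region 1445 bp upstream of act-3 (951 and 10998), and regions that share their replicate regions coincide.

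By the nearest coding gene start, 18 of the 24 regions belonged to the member and 6 to a neighbour. The 6 were the tba-1 region at cox-5B, the act-5 region at shpk-1, the pair within pbs-2, the tbb-2 region nearest to snpc-3.4, and the tba-2 coding region, whose summit was 344 bp upstream of the start of C47B2.2. None of the 24 had a gene of a transfer, small nucleolar or small nuclear RNA within 100 bp of its summit, and the nearest such gene to any of them was 12651 bp away. The same counts over all regions of the list of both are not given here. Whether the members differ from the list in these respects is therefore not known.

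Other genes of the actin and microtubule pathways were described by 4 lists, with the count of genes that had an IDR region beside the 4.24% of all genes. The lists were chosen with earlier results of these data known, so their shares are descriptions, and no test was made. In the list of both, 60.1% of all genes had a region, and the median best rank of those was 8779. Among 12 other tubulin genes, 2 had an IDR region. These were tba-7, in an intron 319 bp from the start (signal 486, IDR rank 82), and tbg-1, the gamma-tubulin of microtubule nucleation, whose region 804 bp upstream was 73 bp upstream of rpac-19. Of these 12 genes, 7 (58.3%) had a region in the list of both, near the share of all genes, with a median best rank of 7767. Among 30 genes of actin assembly and turnover, 3 had an IDR region, and 28 (93.3%) had one in the list of both, with a median best rank of 3654.5. The 3 were wve-1, of the WAVE complex that activates branched actin assembly, cyk-1, a formin of cytokinesis, and fli-1, a gelsolin-related gene. The wve-1 summit, 672 bp upstream, was nearer to the start of R06C1.4, at 577 bp. At cyk-1 and fli-1 a transfer RNA gene lay at the summit.

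Among 19 genes of actin crosslinking and non-muscle myosin, 3 had an IDR region and all 19 had one in the list of both, against 60.1% of all genes. The median best rank was 4427, against 8779 over all genes with a region. The 3 code for the alpha and beta spectrins spc-1 and unc-70 and for the actin-binding protein unc-115. The highest of spc-1 was a promoter region 735 bp upstream (signal 199.5), while the higher region of unc-70 (383.6) and of unc-115 (197.2) had a small RNA gene within 100 bp. Among 41 genes of tubulin folding and microtubule assembly, 6 had an IDR region. In the list of both 37 (90.2%) had one, with a median best rank of 5477. Window lengths of the lists were not matched to those of all genes, and the lists were chosen with earlier results known. The 6 were cct-8 and pfd-5, subunits of the chaperonin and the prefoldin that fold actin and tubulin, cls-3, a CLASP gene, spas-1, a spastin, ptrn-1, which binds microtubule minus ends, and spd-5, a scaffold of the centrosome. Their summits were in the promoter for 5, from 140 bp upstream at pfd-5 to 460 bp at ptrn-1, and 172 bp inside the gene for spd-5 (signal 210.5). The cct-8 summit was nearer to the start of Y55F3AR.2.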

How the data were processed

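Regions were called by the authors on each replicate and on both together, against a control, in build ce11, and the IDR set was derived from these lists, per the text notes deposited with the samples. The sources used here name no caller, aligner or IDR threshold, nor how reads with several matches were treated. Column 7 is a signal deposited by the authors, relative to a control on an unstated scale, and column 9 a score deposited on an unstated scale. Region ends fitted within the chromosomes of WBcel235, and genes were taken from Ensembl release 115. Summits were assigned to windows and ranked by signal. The members and gene lists were chosen with earlier results of these data known. All 9 members are named with each region of the list of both, and of other lists the genes with an IDR region. With 1 group and no counts of reads, no test was made. A replicate region was matched to a region when they overlapped by at least 1 bp, taking the nearest summit. The regions have a median width of 480 to 484 bp. Assignment recovered 200 of 200 summits planted in simulated lists over 19973 genes. Of the listed genes, 2 symbols were not in the annotation. Lists of build ce10 were not used here. Python 3.11.15, numpy 2.4.6, pandas 2.3.3, scipy 1.17.1 and matplotlib 3.10.9 were used.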

Additional observations from a re-analysis of the deposited data

How the results depend on the processing

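Of 26 alternative values, 20 stayed within 1.5 times the value reported. The number of members with an IDR region went from 1 to 0 with windows from 1 kb upstream, which leave out the tba-1 region, and to 0 in the upper 0.5 of the IDR set. With the list of both limited to its highest 5000, members held 8 regions in place of 24 and 3 promoter regions in place of 9. A promoter of 500 bp held 5, and promoters upstream of any transcript start held 11. The median highest rank of the members, 2663, was 1637 to 3654 when 1 replicate was left out. The highest 791 regions of replicate 1 held 1 member, tba-1, and those of replicate 2 held 1 member, act-4. Windows around the canonical transcript were not run, since the annotation marks none. Because read depth is unknown, no interval can be given for a signal. No paired analysis was possible because the design has 1 group.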

Other observations

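The lists of the replicates held 5 regions at members with no overlapping region in the list of both. The act-2 gene body regions of the 2 replicates overlapped each other. Replicate 1 had one in the act-2 gene body (773 bp from the start, rank 24938) and one 1842 bp upstream of tba-2 (rank 23431). Replicate 2 had one in the act-2 gene body (523 bp, rank 23207), one in the act-5 gene body (736 bp, rank 21214) and one in the tba-1 promoter (415 bp upstream, rank 12356).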
